A study of Mus musculus with 8 samples.

Results

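The potassium channel genes of the mouse genome carry symbols that start with Kcn, and the array held 155 spots for 93 such symbols among 33026 named spots for 22485 symbols. They were measured in the adrenal medulla of SDHD-ESR mice and of +/- mice. SDHD-ESR mice carried 1 floxed and 1 deleted SdhD allele (SdhD flox/-) together with the tamoxifen-inducible recombinase Cre-ER, which is active throughout the body and not in chromaffin cells alone. The +/- mice were SdhD flox/- littermates without Cre, and the +/+ animals of the common reference were SdhD flox/+ littermates without Cre. All were males of the 129/SvJ background aged 10 weeks. They were injected at 9 weeks with 100 µg/g tamoxifen daily for 4 days and killed 1 week after the first injection, so that the controls had received the drug too. RNA of 8 SDHD-ESR mice was spread over 4 arrays and RNA of 8 +/- mice over another 4 arrays, each hybridised against 1 pool of 8 +/+ mice. Every value below is the log2 ratio of the sample to that pool, positive where the sample held more RNA. The medulla was dissected from the cortex by hand, and in such bulk tissue fewer cells of a type and less RNA per cell cannot be told apart.

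Potassium channels set the resting potential of chromaffin cells and end each action potential, and so limit calcium entry and catecholamine release. Inward rectifiers (Kcnj) and 2-pore leak channels (Kcnk) act near rest, voltage-gated channels (Kcna to Kcnd, Kcnh, Kcnq) repolarise the membrane, and the calcium-activated BK (Kcnm) and SK (Kcnn) channels couple it to calcium. Several potassium channels are closed or down-regulated by low oxygen in chromaffin and carotid body cells.

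The promoters of 3 of the genes with a spot that was lower in SDHD-ESR on both slides after centring (for Kcnma1, 1 of its 3 spots) are shown with the letters ACGTG or GCGTG, the core of the hypoxia response element, in capitals on either strand. Other genes, among them Kcnk1, Kcnk9 and Kcnq1, also had such a spot, and their windows are not shown. For Kcnj2 and Kcnma1, the slide with replicates 1 and 2 held an SDHD-ESR value on replicate 2 alone. The windows come from RefSeq (GRCm38.p6), run 5′ to 3′ on the strand of the gene and hold 300 bases around the annotated start. Kcnj2 lies on the plus strand at chr11:111065914-111066213, Kcnj8 on the minus strand at chr6:142571565-142571864 and Kcnma1 on the minus strand at chr14:24004156-24004455.
Kcnj2: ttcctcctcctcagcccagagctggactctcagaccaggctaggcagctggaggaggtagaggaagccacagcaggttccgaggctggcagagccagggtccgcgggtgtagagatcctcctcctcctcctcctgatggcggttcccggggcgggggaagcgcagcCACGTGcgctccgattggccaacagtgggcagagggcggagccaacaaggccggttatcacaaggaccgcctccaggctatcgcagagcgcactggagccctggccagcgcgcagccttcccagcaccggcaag
Kcnj8: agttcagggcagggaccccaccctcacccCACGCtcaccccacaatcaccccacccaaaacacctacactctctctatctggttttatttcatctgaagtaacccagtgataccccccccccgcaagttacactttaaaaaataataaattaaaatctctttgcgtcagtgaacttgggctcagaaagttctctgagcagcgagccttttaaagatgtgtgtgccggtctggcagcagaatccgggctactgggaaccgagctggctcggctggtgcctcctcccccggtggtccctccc
Kcnma1: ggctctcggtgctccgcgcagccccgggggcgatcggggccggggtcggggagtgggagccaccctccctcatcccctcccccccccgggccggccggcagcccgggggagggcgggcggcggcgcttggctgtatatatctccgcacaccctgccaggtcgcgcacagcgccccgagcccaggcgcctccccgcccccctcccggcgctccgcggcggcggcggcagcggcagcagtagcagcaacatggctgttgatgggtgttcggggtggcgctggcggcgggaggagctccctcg
The Kcnj2 window held CACGTG, which reads as the motif on both strands and counts as 2 overlapping matches, at positions -84 and -83 from the start site. The Kcnj8 window held 1 match on the opposite strand at -221, and the Kcnma1 window held 0 matches. Of the 93 symbols, 70 had a window in the table, and 43 of their 95 windows (45.3%) held the motif, against 14380 of 32851 windows (43.8%) over all genes. A match is a description of letters and not of a bound site.

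A few facts of the arrays bear on every value. Sdhd itself had ratios of -5.00, -6.19, -5.26 and -4.86 on the SDHD-ESR arrays, against -1.10, -2.25, -0.74 and -0.29 on the +/- arrays, which set the direction of the ratios and fits the labels of all 8 arrays. That direction is opposite to a plain reading of the ratio and dyes as the study names them. Values of SDHD-ESR replicate 1 matched the spots of the other arrays on 46.2% of the grid lines and lay 1 line off on 41.0%, so this array was used only where it matched: for 65 of the 155 channel spots it did, 65 lay in the displaced part and 25 in the mixed part between. The array medians ran from -0.12 to 0.10 in SDHD-ESR and from -0.24 to 0.32 in +/-. Within slides, the median difference over all 18593 tested genes was 0.27 on the slide with replicates 1 and 2 and -0.33 on the slide with replicates 3 and 4, so that within-slide differences are given after each array was centred on its median. Where SDHD-ESR replicate 1 was not used, the difference on the slide with replicates 1 and 2 rests on SDHD-ESR replicate 2 alone. Of the chromaffin cell markers 7 genes were higher and 7 lower (median difference -0.03), and of the adrenal cortex markers 6 and 6, but 90 of 187 chromaffin values and 68 of 192 cortex values lay within 0.01 of 0, so these lists give little measure of the makeup of the tissue. Adipose markers were lower for 9 of 9 tested genes (median difference -1.11), with array medians of 0.62, 0.00, -1.80 and -1.45 in SDHD-ESR, against 0.89, -1.55, 0.50 and 1.03 in +/- medulla, which overlap. Schwann and sustentacular cell markers were lower for 7 of 8 tested genes (median difference -0.37). The markers of other cell types are given beside members made by such cells, and only ratios are used here, which hold no level.

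Many channel spots were dim. In each array 34.4% to 39.9% of the values equal, within 3e-07, the log2 of a ratio of whole numbers of at most 200, as a spot gives when both fluorescence readings are low. Such values made up 42.5% of the 889 channel values, against 25.6% over all tested spots, and 63.8% of the Kcnj, 49.8% of the voltage-gated, 41.2% of the auxiliary, 35.2% of the Kcnm and 26.0% of the Kcnk values. The Kcnn, Kcnt and Kcnu group had the lowest share, 15.8%. Spots with such a ratio in 50% or more of their values (53 spots) had a median SE of the difference of 0.65, against 0.23 for the 30 spots that had none. A test needed 3 values in each group, which 123 spots of 78 genes met. The other 32 spots had too few, and 15 genes had no tested spot: Kcnj13, Kcnk7, Kcnk10, Kcnmb1, Kcnn1, Kcna2, Kcna4, Kcnc2, Kcng1, Kcnh1, Kcnh5, Kcnq5, Kcns1, Kcnv2 and Kcne1. Among them are Kcnmb1, the BK subunit of smooth muscle, and Kcnn1, an SK channel of neurons.

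Between SDHD-ESR and +/- medulla no channel spot passed the adjusted threshold of 0.05 in limma (0 of 123), and neither did any spot on the array (0 of 26944, 0.0%). At an unadjusted p of 0.05, 7 channel spots (5.69%) passed, against 4.87% of all tested spots, and the methods' t-test put 5 channel spots past that level and 0 past the adjusted threshold. Of the 7 spots in limma, 6 were lower in SDHD-ESR (4.88% of 123, against 3.08% of all spots in that direction) and 1 was higher (0.813%, against 1.80%). Against the +/+ pool, 1 channel spot, Kcnj2, passed the adjusted threshold in SDHD-ESR (8 of 26944 spots did, 0.0297%) and 0 in +/- medulla (0 of 26944, 0.0%). At an unadjusted p, 29 channel spots passed against the pool in SDHD-ESR (all spots 18.8%) and 33 in +/- (all spots 21.9%). Kcnj2 was also the only channel spot that met the 2-step selection of the study, past the adjusted threshold against the pool and past an unadjusted p of 0.05 against +/- (8 of 26944 spots, 0.0297%). With each array centred on its median, 3 channel spots passed against the pool in SDHD-ESR (all spots 2.94%), the same 3 met the selection (all spots 1.37%) and 0 passed between the groups (all spots 0.00371%). With quantile normalization, 4 channel spots passed against the pool in SDHD-ESR (all spots 4.71%) and met the selection (all spots 1.54%), and 7 passed in +/- (all spots 6.7%). These calls were for Kcnj2, Kcna6, Kcnf1 and Kcng2 in SDHD-ESR and for Kcnip3, Kcnc4, Kcnt2, Kcnd2 and 3 spots of Kcnn2 in +/-.

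Over genes, the median difference of the 78 tested members was -0.12, against -0.04 for all tested genes, with 34 members higher and 44 lower. It was -0.09 for the 14 Kcnj genes (6 higher, 8 lower), -0.10 for the 12 Kcnk genes (5 and 7), -0.06 for the 4 Kcnm genes (2 and 2) and -0.08 for the 6 Kcnn, Kcnt and Kcnu genes (3 and 3). The 27 voltage-gated genes had a median of -0.23 (10 higher, 17 lower), and the 11 auxiliary subunit genes a median of 0.15 (7 higher, 4 lower). The remaining 4 tested genes, Kcnd3os, Kcnmb4os1, Kcnq1ot1 and Kcnrg, which are not channel subunits, had a median of -0.60 (1 higher, 3 lower), and 0 of their 4 spots passed an unadjusted p of 0.05. The quartiles of all tested genes were -0.23 and 0.13, and only the auxiliary median and that of these 4 genes lay outside them. The medians rest on single arrays: leaving out 1 array put that of all members between -0.25 and -0.05, Kcnj between -0.26 and -0.01, Kcnk between -0.25 and -0.04, voltage-gated genes between -0.28 and -0.06 and auxiliary genes between 0.01 and 0.24. It turned the sign for Kcnm (-0.39 without +/- replicate 1, 0.46 without SDHD-ESR replicate 1) and for Kcnn, Kcnt and Kcnu (-0.17 without +/- replicate 1, 0.16 without SDHD-ESR replicate 3). With each array centred, the medians of the slide with replicates 1 and 2 and of the other slide were -0.42 and 0.10 for Kcnj, -0.27 and -0.0036 for Kcnk, 0.08 and 0.03 for Kcnm, and -0.18 and 0.05 for voltage-gated genes. Of these 4 groups, only Kcnk was below 0 on both slides, and on the slide with replicates 3 and 4 only by 0.0036. The auxiliary genes were at 0.09 and 0.35. Of the 78 genes, 35 had differences of the same sign on both slides before centring and 43 of opposite sign.

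**Figure D1:**
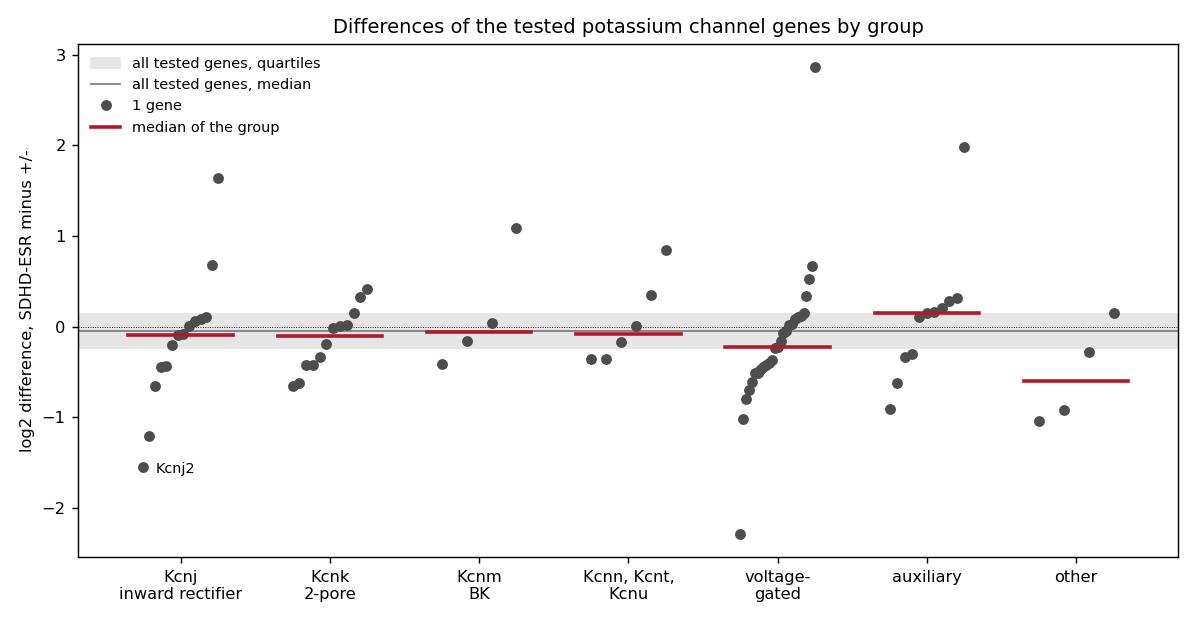
Log2 difference between SDHD-ESR and +/- medulla (vertical axis) for each of the 78 tested potassium channel genes (points, the median over the spots of a gene), by channel group, with the group median (red line) and the quartiles and median of all tested genes (grey). Kcnj2 lies at -1.55, and the widest points of the voltage-gated group, Kcns3 at -2.29 and Kcns2 at 2.86, come from dim spots.

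Kcnj2 (NM_008425) encodes Kir2.1, the strong inward rectifier that holds the resting potential of heart and skeletal muscle and is also made by vascular cells and macrophages. Its 1 spot read -2.15, -1.69 and -1.76 on SDHD-ESR replicates 2 to 4, against -0.40, -0.54, -0.17 and -0.16 on +/- replicates 1 to 4, and SDHD-ESR replicate 1 had no value. All SDHD-ESR values lay below all +/- values, with a gap of more than 1 log2 unit between the groups. The mean fell to -1.87 ± 0.25 (SD, n = 3) in SDHD-ESR, 27.4% of the +/+ pool (adjusted p = 0.0451 in limma), and was -0.32 ± 0.18 (SD, n = 4) in +/- medulla, 80.3% of the pool (adjusted p = 0.185 in limma). The difference between the groups was -1.55 with a standard error of 0.17, an SDHD-ESR level of 34.1% of +/-, with an adjusted p of 0.33 in limma and p = 0.0286 in a two-sided exact permutation test over 35 splits, the smallest that test can give. After centring, it was -1.96 on the slide with replicates 1 and 2, from SDHD-ESR replicate 2 alone, and -1.24 on the other slide.

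The call for Kcnj2 stood near the threshold, and the spot was dim. Its ratio matched 30 to 97 and 23 to 78 units on SDHD-ESR replicates 3 and 4, and 72 to 95 and 71 to 80 units on +/- replicates 1 and 3, each up to an unknown common factor, and 5 of its 7 values were dim. With any single array omitted, the adjusted p against the pool lay between 0.067 and 0.171, while the mean difference stayed between -1.64 and -1.41. It also missed the threshold with the methods' t-test (adjusted p = 0.333). Markers of macrophages and leukocytes were lower in SDHD-ESR for 11 of 11 tested genes. Their array medians were -0.67, -0.21, -0.62 and -0.61 in SDHD-ESR, against -0.13, -0.10, 0.31 and 0.22 in +/- medulla. Endothelial markers and smooth muscle and pericyte markers were lower for 10 of 10 tested genes each. The part of these cells in the Kcnj2 value was not tested.

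Kcnj8 encodes Kir6.1, the pore of the ATP-sensitive channel of vascular smooth muscle and pericytes. It read -0.20, 0.13, -0.64 and -0.45 on the 4 SDHD-ESR arrays, against -0.11, 0.42, 0.43 and 0.73 on the 4 +/- arrays. SDHD-ESR replicate 2 and +/- replicate 1 overlapped, and the other values were apart. The difference of -0.66 (SE 0.23) had an unadjusted p of 0.0234 and an adjusted p of 0.987 in limma (two-sided exact permutation p = 0.0571). Centred, it was -0.41 and -0.80 on the 2 slides. Of the smooth muscle and pericyte markers 10 of 10 tested genes were lower in SDHD-ESR (median difference -0.34), with array medians from -0.40 to 0.20 against 0.29 to 0.51 on the +/- arrays, and of the endothelial markers 10 of 10 (median difference -0.27). Their part in the Kcnj8 value was not tested. Abcc9, which encodes the SUR2 subunit that pairs with Kir6.1 in pericytes, had a difference of -0.25 (SE 0.31) and an adjusted p of 1 in limma.

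**Figure D2:**
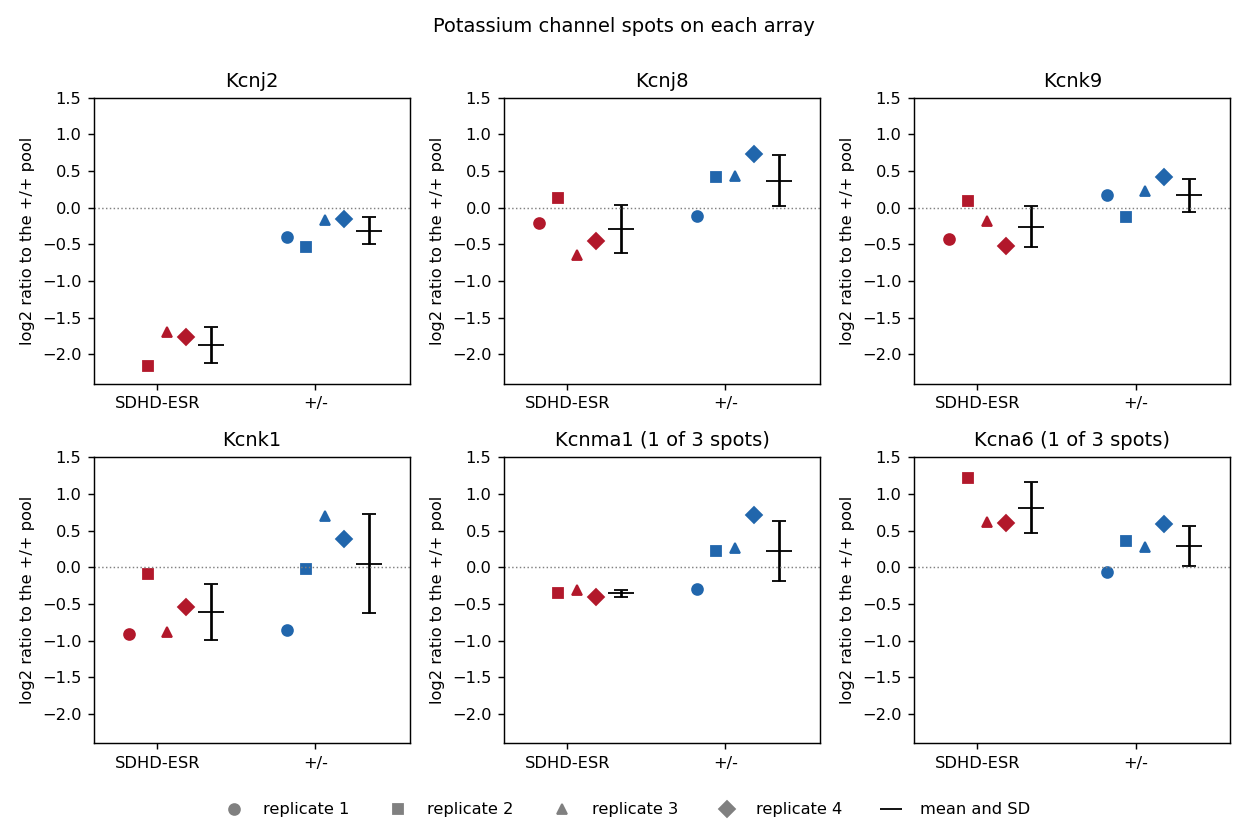
Log2 ratio to the +/+ pool (vertical axis) of 6 potassium channel spots on each array, SDHD-ESR (red) left of +/- (blue), symbols marking the replicate and the black bar the mean with the SD. For Kcnj2 the 3 SDHD-ESR values lie between -2.15 and -1.69, below all 4 +/- values, and for Kcnj8, Kcnk9 and Kcnk1 the groups overlap.

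The pancreatic-type ATP-sensitive channel had its pore, Kir6.2 (Kcnj11), at 0.21, -0.51, -0.42 and 0.19 on the SDHD-ESR arrays, against -0.54, -0.01, -0.03 and 0.01 on the +/- arrays. The groups overlapped, and the difference of 0.01 (SE 0.23) was far below the spread between arrays. Its partner SUR1 (Abcc8) had 2 tested spots with differences of -0.37 (SE 0.16) and -0.47 (SE 0.22), both with an adjusted p of 0.987 in limma. The first of them read -0.03, -0.21 and -0.03 on SDHD-ESR replicates 2 to 4, against -0.02, 0.54, 0.31 and 0.31 on the +/- arrays.

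The G protein-gated rectifiers, which slow excitable cells when Gi-coupled receptors are active, gave no common direction. Kcnj5 (GIRK4), a channel of heart and of the aldosterone-producing cells of the cortex, read -0.81, -0.61, 0.38 and -0.04 in SDHD-ESR, against 0.65, -0.47, 0.55 and -0.08 in +/- medulla. Kcnj3 (GIRK1) had differences of -0.05 and -0.36 on its 2 spots. Kcnj6 (GIRK2) had 8 tested spots, of which 4 were lower and 4 higher, from -1.16 to 1.82. Among these 8, 1 passed an unadjusted p of 0.05 upward: it read 0.03, 0.53 and 0.88 on SDHD-ESR replicates 2 to 4, against -0.79, -0.51, -0.31 and -0.24 on the +/- arrays, without overlap (difference 0.94, SE 0.25, adjusted p = 0.987 in limma). As the other 7 tested spots for the same accession were split, 3 higher and 4 lower, that value is given for the spot and not for the gene. Kcnj10 (Kir4.1), a potassium-buffering channel of glia, read 0.20, 0.11 and 0.26 on SDHD-ESR replicates 2 to 4, against 0.56, 1.18, 0.53 and 0.28 on the +/- arrays. The groups did not overlap, and the difference was -0.45 (SE 0.23, adjusted p = 0.987 in limma), but after centring it was -0.95 on the slide with replicates 1 and 2 and 0.10 on the other. The Schwann and sustentacular cell markers had array medians of -1.38, 0.66, 0.13 and 0.11 in SDHD-ESR, against 0.05, 0.30, 0.36 and 0.40 in +/- medulla, and their part in the Kcnj10 value was not tested.

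Among the 2-pore channels, Kcnk9 (TASK-3), an acid-sensitive leak channel of chromaffin and zona glomerulosa cells in rodents, had the smallest p. It read -0.43, 0.10, -0.17 and -0.53 on the SDHD-ESR arrays, against 0.17, -0.13, 0.22 and 0.42 on the +/- arrays, with SDHD-ESR replicate 2 inside the +/- range. The difference was -0.43 (SE 0.18), with an unadjusted p of 0.0495 and an adjusted p of 0.987 in limma, and -0.40 and -0.35 on the 2 slides after centring. Kcnk1 (TWIK-1) read -0.91, -0.09, -0.89 and -0.54 in SDHD-ESR, against -0.86, -0.03, 0.70 and 0.38 in +/- medulla. The low value of +/- replicate 1 kept the groups overlapping, and the difference was -0.65 (SE 0.36, adjusted p = 0.987 in limma), or -0.26 and -0.93 on the 2 slides after centring.

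Kcnk3 (TASK-1), the partner of TASK-3 and an acid- and oxygen-sensitive channel, lay within 0.01 of 0 on all 7 arrays with a value. It was the only channel spot to do so, while 351 of all tested spots did. A ratio that close to 0 on every array leaves no spread to measure a difference against, and its reading was not tested against fluorescence, since only ratios are used here. Kcnk2 (TREK-1), which opens on stretch, read -0.14, 0.04 and 0.63 on SDHD-ESR replicates 2 to 4, against 0.50, 0.36, 0.95 and 0.24 on the +/- arrays. Kcnk5 (TASK-2), a channel opened by alkaline pH, was below the pool on every array, from -3.03 to -0.24 in SDHD-ESR and from -1.49 to -0.26 in +/- medulla, with 6 of its 8 values dim. Both pairs of groups overlapped.

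The BK channel is the large calcium- and voltage-activated channel that repolarises chromaffin cells, and its pore gene Kcnma1 had 3 tested spots. The spot with the smallest p (NM_010610) read -0.35, -0.31 and -0.41 on SDHD-ESR replicates 2 to 4, against -0.29, 0.22, 0.27 and 0.71 on the +/- arrays. The groups did not overlap, though SDHD-ESR replicate 3 and +/- replicate 1 were nearly equal. The difference was -0.58 (SE 0.24, unadjusted p = 0.0478 and adjusted p = 0.987 in limma), and -0.59 and -0.52 on the 2 slides after centring. The value of SDHD-ESR replicate 1 for this spot, read 1 grid line away where the displaced part of that array puts it, was -0.58 and below all +/- values too. The other 2 spots did not share this: their differences were -0.07 (SE 0.27) and -0.16 (SE 0.26), and the median of the 3 spots per array was 0.46, -0.21 and 0.23 on SDHD-ESR replicates 2 to 4, against -0.29, 0.33, 0.42 and 0.67 on the +/- arrays (two-sided exact permutation p = 0.657).

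Of the BK beta subunits, Kcnmb2, which inactivates the channel in rat chromaffin cells, had differences of 1.32 (SE 1.22) and 0.85 (SE 0.62) on its 2 spots, with 8 of 13 values dim. Kcnmb4, the neuronal subunit, had differences of -0.50 (SE 0.37) and -0.32 (SE 0.27). Neither gene passed an unadjusted p of 0.05. Kcnmb3 had a difference of 0.04 (SE 1.45) on a spot with 6 of 6 values dim.

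The gene Kcnn2, which encodes the calcium-activated SK2 channel, was the best measured member, with 10 spots for the same accession and 1 dim value in 76. The median over the spots was 0.15, 0.32, 0.07 and 0.38 on the SDHD-ESR arrays, against 0.14, 0.05, 0.78 and 0.68 on the +/- arrays. Within an array the spots differed by an SD of 0.02 to 0.12, far less than the arrays differed from each other: +/- replicates 3 and 4 stood above the rest, and the 4 SDHD-ESR arrays lay with +/- replicates 1 and 2 or between. Those +/- replicates 3 and 4 also had the highest medians over the named spots, 0.23 and 0.36. After centring, the Kcnn2 spots differed by -0.12 to 0.02 on the slide with replicates 1 and 2 and by -0.34 to -0.07 on the other. The SDHD-ESR arrays averaged 0.23 ± 0.14 and the +/- arrays 0.41 ± 0.37 (SD, n = 4 each), a difference of -0.18 (two-sided exact permutation p = 0.4). All 10 spots gave a negative difference, from -0.28 to -0.07, which repeats the same arrays and is not 10 observations.

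Spots of the same gene lay further apart for the other members with 10 spots. For Kcnip1, a calcium-binding partner of Kv4 channels, the 9 tested spots had array medians of 0.95, 0.13, 0.65 and 0.44 in SDHD-ESR, against 0.52, -0.46, 0.27 and 0.44 in +/- medulla. The spots differed by an SD of 0.09 to 0.64 within the SDHD-ESR arrays, the difference of means was 0.35 (two-sided exact permutation p = 0.314), and 8 of the 9 spots were higher in SDHD-ESR. For Kcnj6 the SD over the tested spots of an array reached 2.54 in SDHD-ESR and 2.40 in +/- medulla.

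**Figure D3:**
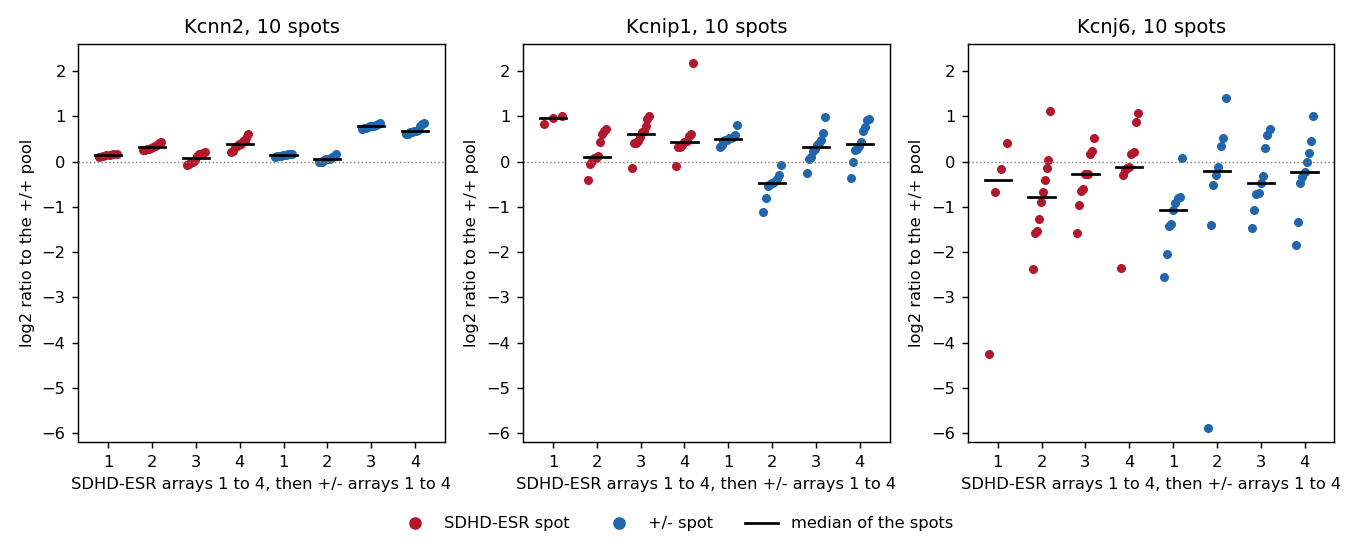
Log2 ratio to the +/+ pool (vertical axis) of each of the 10 spots of Kcnn2, Kcnip1 and Kcnj6 on the 4 SDHD-ESR arrays (red) and the 4 +/- arrays (blue), with the median of the spots of an array (black line). The Kcnn2 spots of an array lie close together, with medians from 0.07 to 0.38 in SDHD-ESR and from 0.05 to 0.78 in +/-, while those of Kcnj6 scatter widely.

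No spot of the other calcium- or sodium-activated channels passed an unadjusted p of 0.05. Kcnt2 (Slick), a sodium-activated channel, read -1.29, -0.37 and 0.23 on SDHD-ESR replicates 2 to 4, against -1.48, -0.90, -1.63 and -1.29 on the +/- arrays. The groups overlapped at SDHD-ESR replicate 2, and the difference of 0.85 (SE 0.38, unadjusted p = 0.0645 and adjusted p = 0.987 in limma), with 5 of 7 values dim, was -0.38 and 1.71 on the 2 slides after centring. Kcnn3 (SK3) had differences of -0.11 (SE 0.28) and -0.59 (SE 1.08) on its 2 spots. Kcnn4, the intermediate-conductance channel of leukocytes and red cells, read 0.12, -0.77, -2.20 and -0.74 in SDHD-ESR, against -1.20, -1.16, -0.54 and -0.71 in +/- medulla, with a difference of 0.01 (SE 0.46). Kcnt1 (Slack), opened by sodium, had a difference of -0.35 (SE 0.42), and Kcnu1, the testis channel opened by alkaline pH, had 0.35 (SE 0.37).

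The voltage-gated group held 27 tested genes. Kcna6, a Kv1 delayed rectifier of neurons, had 1 of its 3 spots higher in SDHD-ESR without overlap: it read 1.22, 0.61 and 0.61 on SDHD-ESR replicates 2 to 4, against -0.07, 0.36, 0.28 and 0.60 on the +/- arrays. SDHD-ESR replicates 3 and 4 were barely above +/- replicate 4, and the value of SDHD-ESR replicate 1 read 1 line away was 0.75. The difference was 0.52 (SE 0.23, unadjusted p = 0.0607 and adjusted p = 0.987 in limma), with 0.79 and 0.50 on the 2 slides after centring. When each array was centred, this spot was past the adjusted threshold against the pool in SDHD-ESR (0.78, adjusted p = 0.0408 in limma). The other 2 spots had differences of 0.04 (SE 0.40) and, with 8 of 8 values dim, 1.20 (SE 1.37).

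Kcnc4, a fast Kv3 channel, read 0.44, 0.34 and 0.30 on SDHD-ESR replicates 2 to 4, against 0.50, 0.74, 0.64 and 0.47 on the +/- arrays, above the pool throughout and without overlap between the groups. The difference of -0.23 (SE 0.12, adjusted p = 0.987 in limma) turned to 0.09 on the slide with replicates 3 and 4 after centring. Kcnc1, of the same family, had differences of -0.31 (SE 0.42) and 0.55 (SE 0.56) on its 2 spots. The A-type channels, which shape the spacing of action potentials, gave 0.62, 0.37, -0.05 and 0.17 for Kcnd2 in SDHD-ESR, against 0.48, 0.19, 0.92 and 1.00 in +/- medulla. For Kcnd3 they gave 0.18, 0.67, -0.13 and 0.42 in SDHD-ESR, against -0.28, 1.14, 0.79 and 0.46 in +/- medulla. The groups overlapped for both genes, with differences of -0.37 (SE 0.23) and -0.24 (SE 0.32).

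Kcna1 (Kv1.1), a low-threshold channel of axons, was above the pool on all 8 arrays, with 0.03, 2.02, 1.11 and 0.87 in SDHD-ESR and 0.74, 1.23, 1.17 and 0.83 in +/- medulla, and a difference of 0.02 (SE 0.39). Kcna3 (Kv1.3), a channel of lymphocytes and macrophages, read -0.27, -0.32 and -0.09 on SDHD-ESR replicates 2 to 4, against -0.25, -0.96, 0.22 and 0.27 on the +/- arrays. Its difference of -0.05 (SE 0.32) was within the spread. Kcnh2 (Erg), which has been recorded in mouse chromaffin cells, differed by -0.16 (SE 0.21), and Kcnq3, a subunit of the M channel, by -0.45 (SE 0.54) with 6 of 7 values dim.

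The silent subunits Kcnf, Kcng, Kcns and Kcnv, which form no channel alone but change Kv2 channels, had the largest differences and the dimmest spots, with 75.0% of their values dim. Kcnf1 had a spot at -0.79, -3.21 and -2.38 on SDHD-ESR replicates 2 to 4, against -1.04, -0.27, -0.17 and 0.27 on the +/- arrays, and another with a difference of 0.23 (SE 0.20). Kcng2 had a spot at -4.26, -1.29 and -2.32 on SDHD-ESR replicates 2 to 4, against -0.56, -0.46, -1.23 and -0.51 on the +/- arrays, and another with a difference of -0.11 (SE 0.25). These 2 spots had unadjusted p values of 0.022 and 0.0277 and an adjusted p of 0.987 in limma, with 7 of 7 values dim in each, and the second spot of either gene did not follow. Kcns2 (difference 2.86, SE 1.19) and Kcns3 (difference -2.29, SE 1.28) were the extremes of the 78 genes and overlapped between the groups.

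Auxiliary subunits that bind Kv4, Kv1 or Kv7 channels were tested for 11 genes, and 0 of their 23 spots passed an unadjusted p of 0.05. Kcnip3, a partner of Kv4 channels that also acts as a calcium-dependent repressor of transcription, read 0.45, 0.30 and 0.28 on SDHD-ESR replicates 2 to 4, against 0.47, 0.82, 0.60 and 0.50 on the +/- arrays. The groups just missed each other, but the value of SDHD-ESR replicate 1 read 1 line away, 0.54, fell inside the +/- range. The difference was -0.25 (SE 0.13), or -0.47 and 0.07 on the 2 slides after centring. Kcne4, which damps Kv7 channels, had differences of -0.94 (SE 0.41) and -0.89 (SE 0.80) on its 2 spots. Kcnab1 and Kcnab2, cytoplasmic beta subunits of Kv1 channels, had differences of 0.32 (SE 0.34) and 0.21 (SE 0.40).

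**Figure D4:**
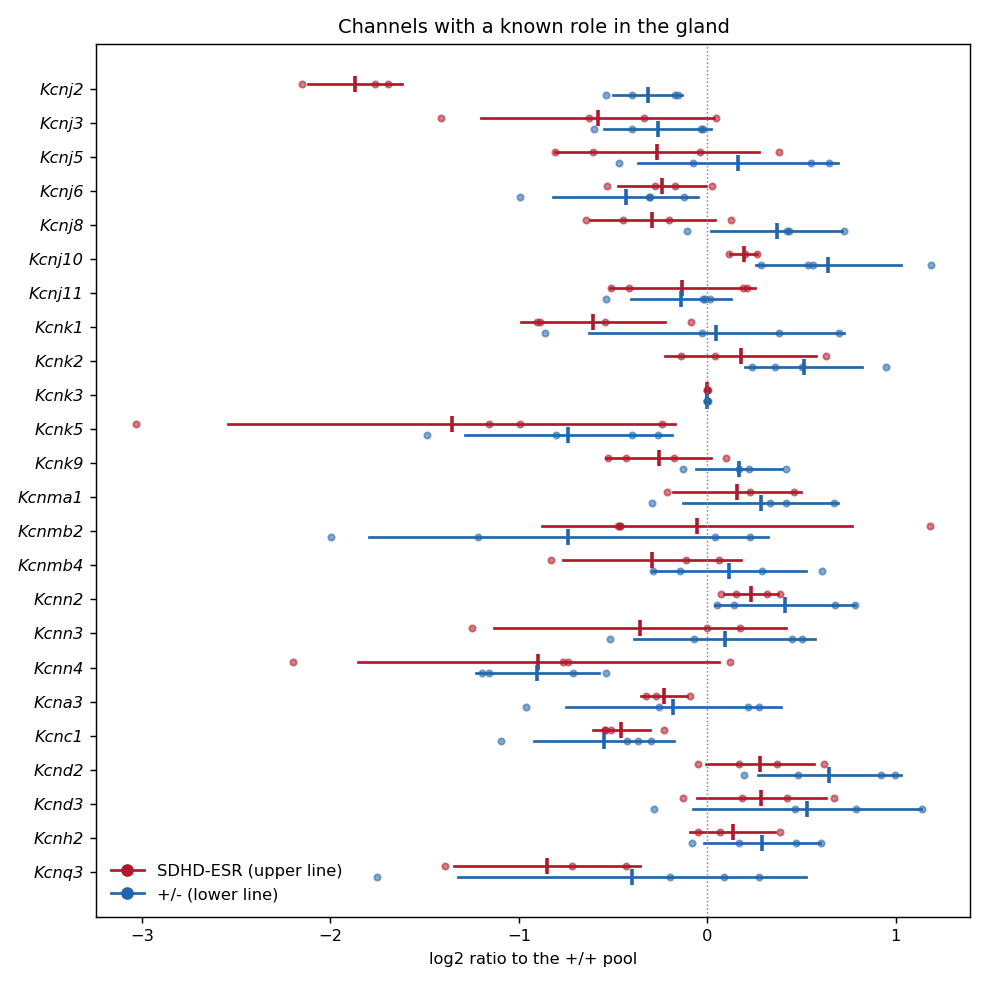
Log2 ratio to the +/+ pool (horizontal axis) of 24 tested potassium channel genes with a known role in chromaffin cells or other cells of the gland, SDHD-ESR (red, upper line) above +/- (blue, lower line) for each gene, with arrays as points (the median over the spots of a gene), the mean as a tick and the SD as a line. The groups lie apart for Kcnj2 and Kcnj10 and overlap for the other 22 genes.

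Groups that did not overlap were found for 8 of the 123 tested channel spots (6.50%), against 3.64% of all tested spots. A lack of overlap is more frequent by chance where fewer arrays have a value. All 8 arrays had a value for 35 of the 123 channel spots, against 10652 of all 26944 tested spots. These shares are therefore not like for like, and their difference is not read as a trait of the channels. In 6 of the 8 channel spots without overlap, the highest SDHD-ESR value was below the lowest +/- value (all spots 1.94%): Kcnj2, Kcnj10, Kcnma1, Kcng2, Kcnc4 and Kcnip3. In 2 they lay above (all spots 1.70%): 1 spot each of Kcnj6 and Kcna6. Each of the 8 rested on 3 SDHD-ESR arrays, since SDHD-ESR replicate 1 had no usable value there. For the 5 that lay in the displaced part of that array, its value read 1 line away kept Kcnj10 (-0.19), Kcnma1 (-0.58), Kcnc4 (-0.12) and Kcna6 (0.75) on the same side and put Kcnip3 among the +/- values. After centring, Kcnj2 and Kcnma1 were lower and Kcna6 was higher on both slides, and Kcnj10, Kcnc4 and Kcnip3 differed in sign between them. The 2 remaining spots, Kcng2 (-4.03 and -0.61) and Kcnj6 (0.40 and 1.30), kept their direction. The spots of Kcnj2, Kcng2 and Kcnj6 were dim. For all 8, the difference on the slide with replicates 1 and 2 rests on SDHD-ESR replicate 2 alone.

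Of 20 genes for channel partner proteins, 17 were tested, and 0 of their 20 spots passed an unadjusted p of 0.05 between the groups. Their median difference was -0.06, with 7 genes higher and 10 lower. Dpp6, which speeds Kv4 channels, had a difference of -0.19 (SE 0.14). Akap9, a scaffold of Kv7 channels, was above the pool in SDHD-ESR (0.73) and in +/- medulla (0.55), with a difference of 0.19 (SE 0.20).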

How the data were processed

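What the authors deposited is a log ratio of Cy5 and Cy3 fluorescence for each of 45220 spots on 8 arrays, read on a GenePix scanner from Agilent 4×44k mouse arrays and handled in Multi-Experiment Viewer. No source used here names a background correction or dye normalization. The deposited values were read as log2 from the values themselves (34.4% to 39.9% per array are base-2 logs of ratios of small whole numbers, against 0.390% to 0.464% for base e and 0.307% to 0.378% for base 10). Intensities, and arrays of kidney, were not analysed here. Rows were matched to probes through the geometry of the grid (SD within copies of an accession 0.189, against 0.744 or more for other layouts), and the sign was turned, since the deposited ratios put Sdhd up in SDHD-ESR. Whole numbers (9.54% to 15.6% of the values of an array) were dropped as stand-ins. Slides were taken from the array numbers in the labels.

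Differences were tested with limma 3.58.1 in R 4.3.3 on the uncentred log2 ratios (a mean per group, at least 3 values in each, Benjamini-Hochberg over 26944 spots), single values also with an exact permutation test, and the script was tested on simulated data. The pool is 1 control sample, so a test against it leaves out the spread of +/+ mice. A gene is the median of its tested spots, unless stated. Alternatives were SDHD-ESR replicate 1 as deposited or moved back by 1 line, centring, quantile normalization, values on all 8 arrays, a block for the slide or for the replicate number, the t-test of the methods, gene means and leaving out each array, and, chosen after seeing the data, leaving out dim values. Values per array are given for Sdhd, for members that passed an adjusted threshold, for 30 members chosen for a known role and for up to 3 spots per group whose groups did not overlap. The values of Kcna1, Kcne4, Kcnf1, Kcnip1, Kcnmb3, Kcns2, Kcns3, Kcnt1, Kcnt2, Kcnu1, Kcnab1 and Kcnab2 are given outside that rule, after they were seen. The members and lists were chosen with earlier results of these data known. Of 93 symbols, 92 were matched to RefSeq by Entrez number (not Kcnmb3), and 0 had changed.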

Additional observations from a re-analysis of the deposited data

Results flagged for a closer look

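In 3 of the 66 groups of 4 arrays examined, 1 array stood far from the other 3, where chance gives about 1 group in 20. For Kcnj6 (the spot with a difference of 0.70, SE 0.79), SDHD-ESR replicate 2 read -2.37, against -0.17, 0.18 and -0.12 on the other SDHD-ESR arrays, on a spot with 7 of 7 values dim. For Kcng2 (the spot with a difference of -1.93), +/- replicate 3 read -1.23, against -0.56, -0.46 and -0.51 on the other +/- arrays, again with 7 of 7 values dim. For Kcnj11, +/- replicate 1 read -0.54, against -0.03 to 0.01 on the other +/- arrays, with 2 of 8 values dim.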

How the results depend on the processing

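Between SDHD-ESR and +/- medulla 0 channel spots passed the adjusted threshold in limma under every alternative run, among them the methods' t-test. At an unadjusted p of 0.05 the 7 spots became 11 with quantile normalization, 3 with values on all 8 arrays (35 spots), 2 without dim values (47 spots, chosen after seeing the data), 3 with gene means, and 3 to 12 when 1 array was left out (3 without SDHD-ESR replicate 3, 12 without +/- replicate 1). The share of all spots at that level is not given for these settings or for the replicate block below. Such counts alone therefore say nothing particular to the channels. The single call against the pool in SDHD-ESR, and the selection of the study, became 3 with centring (Kcna6 and Kcnf1 beside Kcnj2). Over all spots these were 792 and 369. Both became 4 with quantile normalization (Kcng2 in addition, with 1270 of all spots past the pool threshold). They were 0 with values on all 8 arrays, 0 without dim values, 0 with the methods' t-test and 0 without any 1 array (0 to 0). Kcnj2 was not tested with values on all 8 arrays, as it had 7 values, nor without dim values, so its call could not stand in either setting. In +/- medulla the 0 calls against the pool became 7 with quantile normalization (Kcnip3, Kcnc4, Kcnt2, Kcnd2 and 3 spots of Kcnn2), against 1806 of all spots. They became 2 without dim values (Kcnip3 and Kcnc4) and 0 to 0 without any 1 array. The count over all spots without dim values is not given, so those 2 calls are not read as a result about the channels. The adjusted p of Kcnj2 against the pool was 0.333 with the methods' t-test and 0.067 to 0.171 without any 1 array. With values on all 8 arrays the median difference of Kcnk genes moved to -0.43 and the median difference of voltage-gated genes to 0.0154, and without dim values that of voltage-gated genes was 0.00565 and that of auxiliary genes -0.18. Whether the replicate numbers pair the samples is not settled. Arrays of the same number correlated in their deviations at 0.134, 0.139, -0.0166 and 0.0183 over 10652 spots, against -0.228 to 0.0709 for arrays of different numbers. With the replicate number as a block in limma, the calls in SDHD-ESR and the selection became 0, the adjusted p of Kcnj2 0.302 and the spots at an unadjusted p 13. With the slide as a block, Kcnj2 kept its call. It also kept it with SDHD-ESR replicate 1 as deposited or moved back. Neither setting gave Kcnj2 a value on that array, so its own values were unchanged and these settings could not test it. Of the 51 named spots, 2 changed sign with centring, 1 with quantile normalization, 2 with the replicate block and 6 with gene means. Signal limits these data: 42.5% of the channel values are dim ratios, and Kcnj2 could not be tested without them.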
